A study of Mus musculus with 9 samples.

Results

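The genes described here are 9 markers of retinal bipolar cells, Vsx1, Otx2, Grm6, Trpm1, Prkca, Pcp2, Cabp5, Grik1, and Scgn. They were chosen by symbol, and each had 1 row among the 54532 genes of the count table. The RNA came from the neurosensory retina of 9 wild-type C57BL/6 mice at P17 and was sequenced in bulk, from 3 groups of 3 mice. Control mice stayed in room air, and their labels also name DMSO. OIR mice (oxygen-induced retinopathy, in which pups that were raised in high oxygen return to room air at P12 and the retina becomes ischemic) received an intraocular injection of DMSO, the vehicle, at P12. Treated OIR mice (OIR+32-134D) received the HIF inhibitor 32-134D in the same way at P12, at a dose that the labels give as 70 ng in one field and as 70 ng/μL in another. Mice keep the numbers of their labels, with control mice 1, 6, and 7, OIR mice 3, 5, and 6, and treated OIR mice 2, 5, and 10. These number separate animals and pair none across groups, and values below follow this order.

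Bipolar cells carry the signals of photoreceptors to the inner retina. Rod bipolar cells and ON cone bipolar cells respond to light through the glutamate receptor mGluR6, which closes the TRPM1 channel while photoreceptors release glutamate in the dark. OFF cone bipolar cells use ionotropic glutamate receptors of the AMPA and kainate classes, so that glutamate excites them. All bipolar types are born late in retinal development, under transcription factors that include Otx2 and, for several cone types, Vsx1.

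All 9 genes passed the filter on low counts, as did 17540 genes in all, and each had at least 626 counts in every mouse. Total counts per mouse ranged from 16028731 to 27213184. Crystallin genes of the lens made up 15.77% of all counts in treated OIR mouse 2 and at most 0.1836% in the others. Several of the differences that involve this mouse, not all, are therefore also given without it. By Xist and Y chromosome counts, 1 control mouse, 1 OIR mouse, and 2 treated mice were counted as female. Markers of rods, the most numerous cells of the mouse retina, summed to between 39690 and 74430 CPM (counts scaled to library depth) per mouse. In bulk tissue, fewer bipolar cells and less RNA per bipolar cell cannot be told apart. Each p-value weighs a difference between groups against the spread of mice within groups, with 3 mice per group. The main fit estimated that spread over all 9 mice, so every group enters each comparison.

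Levels can be compared between genes only per length, so they were set in order by RPKM (CPM scaled to the length of the gene). The length is that of the count table, which need not be that of the transcript expressed. It ran from 1619 bases for Scgn to 14746 for Trpm1, and the order depends on it. Before this scaling, control retina had a mean of 105.1 CPM for Scgn and 200 for Trpm1. In control retina, Scgn led with 64.9 ± 4.38 RPKM (SD, n = 3), followed by Otx2 with 52.4 ± 2.32 RPKM. Their ranges did not overlap. Pcp2 (44.7 ± 5.40 RPKM), Cabp5 (38.0 ± 7.49 RPKM), and Prkca (29.8 ± 4.27 RPKM) came next, each overlapping its neighbor in range. Grm6 stood at 23.6 ± 1.47 RPKM, apart from the genes above and below it. Grik1 (13.8 ± 2.55 RPKM), Trpm1 (13.6 ± 1.48 RPKM), and Vsx1 (11.1 ± 2.39 RPKM) were lowest and overlapped. In OIR retina Otx2 was first, with 73.7 ± 1.36 RPKM, and Scgn was next with 59.8 ± 9.49 RPKM, without overlap. Cabp5 (44.6 ± 2.10 RPKM) and Prkca (35.3 ± 3.22 RPKM) followed without overlap, and Prkca overlapped Pcp2 (31.8 ± 5.18 RPKM), which overlapped Grm6 (29.1 ± 4.26 RPKM). Trpm1 (18.8 ± 2.88 RPKM) and Grik1 (15.6 ± 3.32 RPKM) overlapped each other alone, and Vsx1 was last with 10.1 ± 0.433 RPKM. Otx2 and Scgn also led in treated OIR retina, at 63.9 ± 3.07 and 42.7 ± 6.76 RPKM, again without overlap between them. The lowest Scgn value in treated OIR mice, 36.71 RPKM, was under the highest of Cabp5 (37.19 RPKM) and Pcp2 (38.95 RPKM). Prkca (31.8 ± 1.82 RPKM), Cabp5 (30.3 ± 7.07 RPKM), and Pcp2 (30.3 ± 7.48 RPKM) overlapped there. Below them stood Grm6 at 21.8 ± 1.86 RPKM and Trpm1 at 14.7 ± 1.44 RPKM, both apart from their neighbors. The lowest genes were Vsx1 at 10.6 ± 0.130 RPKM and Grik1 at 10.2 ± 0.787 RPKM, which overlapped.

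**Figure D1:**
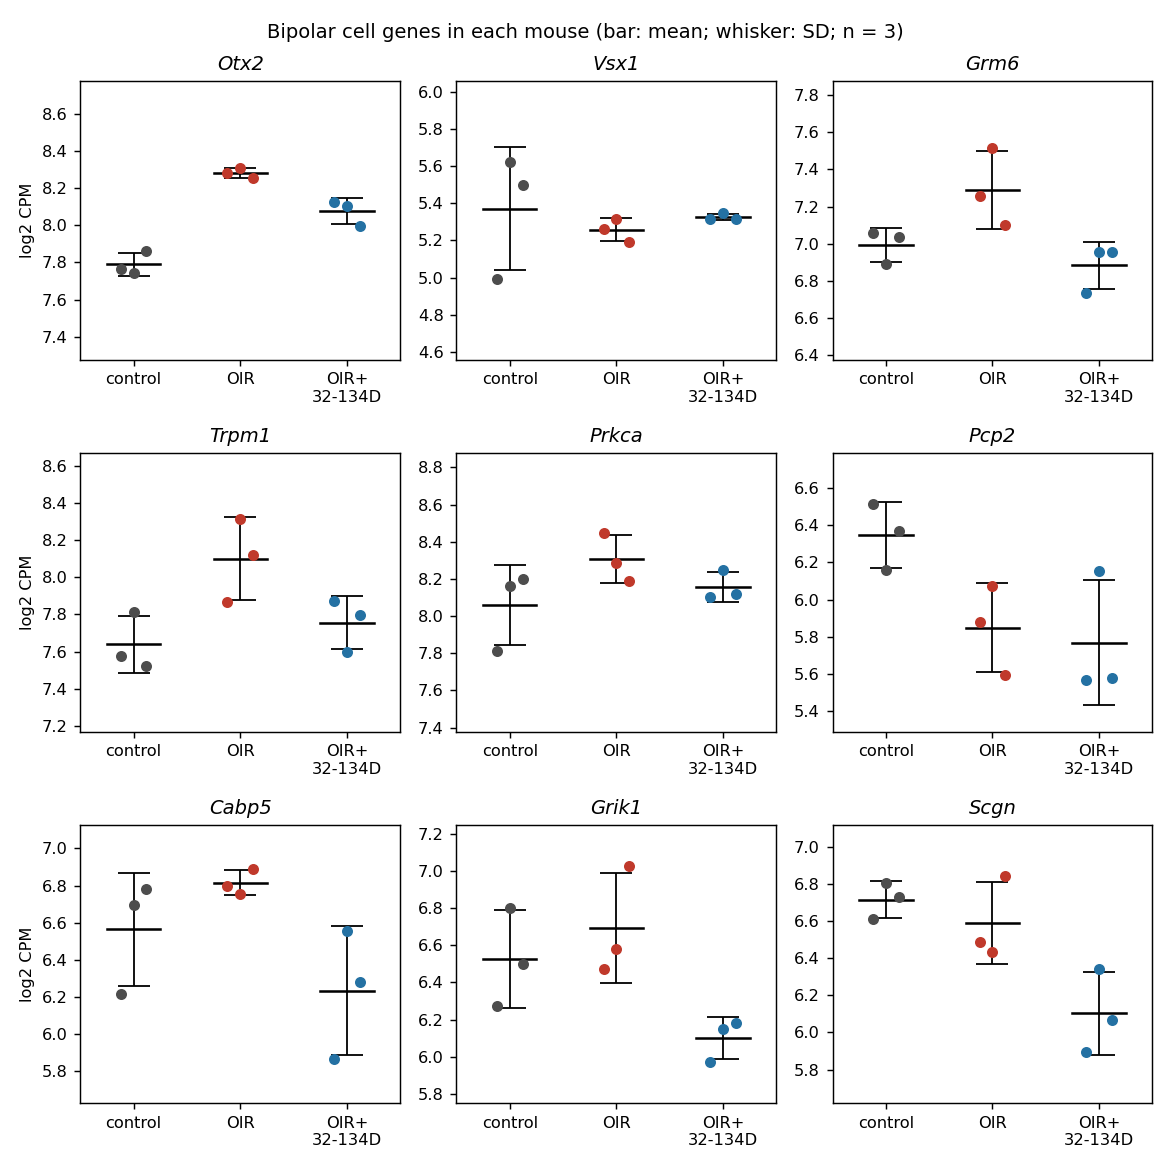
Level of each of the 9 genes in each mouse, as log2 CPM (vertical axis), by group (horizontal axis). Points are mice, the bar is the mean, and the whisker is the SD (n = 3 mice). Otx2 lay between 8.26 and 8.31 in OIR mice and between 7.74 and 7.86 in control mice, and Grik1 between 5.97 and 6.18 in treated OIR mice (OIR+32-134D).

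The promoters of Trpm1 and Grm6, whose products work in the same cascade, and that of Cabp5 are shown because Otx2, a member of the set, is a homeodomain protein known to bind TAATCC. RefSeq's table for GRCm38.p6 held 15 promoters for 8 of the 9 genes, each 250 bases before to 50 bases after a start site, and none for Grik1. TAATCC, read on either strand (TAATCC or GGATTA), was found in 3 of these 15 promoters, in 1 promoter each of Otx2, Trpm1, and Cabp5, and in 7.06% of all 32851 promoters. The bases shown lie before the gene as the count table draws it, read 5′ to 3′ on the gene's strand, with TAATCC or GGATTA in capitals.
Trpm1 (chr7:64153585-64153834, plus strand): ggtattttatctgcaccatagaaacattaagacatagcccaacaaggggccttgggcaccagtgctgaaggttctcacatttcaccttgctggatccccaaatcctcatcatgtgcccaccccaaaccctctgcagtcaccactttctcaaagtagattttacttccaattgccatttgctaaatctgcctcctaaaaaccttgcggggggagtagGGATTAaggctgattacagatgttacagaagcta
Cabp5 (chr7:13397905-13398131, plus strand): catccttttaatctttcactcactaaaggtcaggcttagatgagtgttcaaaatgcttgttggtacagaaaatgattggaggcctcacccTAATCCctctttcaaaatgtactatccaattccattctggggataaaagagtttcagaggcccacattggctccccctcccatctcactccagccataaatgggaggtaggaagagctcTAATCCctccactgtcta
Grm6 (chr11:50850435-50850684, plus strand): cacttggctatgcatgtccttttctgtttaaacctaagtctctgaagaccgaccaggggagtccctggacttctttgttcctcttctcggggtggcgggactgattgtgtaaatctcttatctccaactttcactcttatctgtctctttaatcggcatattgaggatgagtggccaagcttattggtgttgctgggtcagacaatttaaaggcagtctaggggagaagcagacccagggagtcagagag

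In Trpm1 the motif began 34 bases before the start site, and in Cabp5 it began 160 and 41 bases before it. The Grm6 window did not hold these letters. The E-box CANNTG, read on both strands as the same letters, was in 12 of the 15 promoters, beside 72.3% of all promoters, and in at least 1 promoter of 6 of the 8 genes, beside 75.0% of all genes. These matches describe the sequence alone.

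Otx2 (chr14:48657677-48673819, minus strand, GRCm38), the homeodomain factor, rose in OIR retina. Its log2 CPM was 7.76, 7.74, and 7.86 in the control mice. The OIR mice had 8.28, 8.31, and 8.26, and the treated OIR mice 8.13, 8.10, and 8.00. All OIR mice were above all control mice, and the treated OIR mice lay between both groups without overlap. OIR exceeded control by a log2 fold change of 0.49 (SE 0.0901, 95% interval 0.29 to 0.70), a level 1.41-fold that of control, with an adjusted p of 0.0485 (edgeR). It was the 1 of the 9 genes called in this comparison, in which 0.941% of all genes tested were called. The call was kept without treated OIR mouse 2 (adjusted p 0.00960, edgeR), a fit in which 12.5% of all genes tested were called. It was lost when any other mouse was left out (adjusted p 0.0533 to 0.175, edgeR). In 7 of these 8 fits no gene of the whole table was called, so in them the loss was not particular to Otx2. In the other fit, without treated OIR mouse 10, 1.08% of all genes tested were called, and Otx2 was not. Over 19 alternative settings the log2 fold change stayed between 0.47 and 0.56, with adjusted p-values from 3.28e-06 to 0.175 and 9 calls.

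Compared with control, treated OIR retina differed in Otx2 by 0.29 on the log2 scale (SE 0.0900, adjusted p = 0.175, edgeR), a difference that 2 of 21 alternatives called. Compared with OIR, it differed by -0.21 (SE 0.0900, adjusted p = 0.9998, edgeR). Neither passed the threshold. Otx2 is also expressed by photoreceptors and pigment epithelium. The summed CPM of 10 pigment epithelium markers ranged from 362.5 to 474.3 among control mice, from 300.8 to 567.6 among OIR mice, and from 401.4 to 671.7 among treated OIR mice, with no marker at 0. These ranges overlapped, but a sum weighs genes of high level most. Taken singly, 7 of the 10 markers were below 0 between OIR and control and 3 above, with a median log2 fold change of -0.44. Without overlap, 3 lay below control, beside 17.2% of all genes, and none above, and none was called (edgeR). The median between treated OIR and OIR was 0.26. The part of pigment epithelium in the values of Otx2 was not tested. The antisense RNA Otx2os1 overlaps Otx2 and had 320 to 713 counts per mouse, against 3605 to 6804 for Otx2. For Otx2os1, OIR and control differed by 0.50 on the log2 scale (SE 0.189, adjusted p = 0.159, edgeR). Whether reads were counted by strand is not given in the sources used here.

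Vsx1 (chr2:150680702-150689360, minus strand), a homeodomain factor of cone bipolar types, did not pass the test in any comparison. Control mice had log2 CPM of 4.99, 5.62, and 5.50, OIR mice 5.26, 5.32, and 5.19, and treated OIR mice 5.32, 5.35, and 5.32. Control mouse 1 was the lowest of all 9 mice and control mouse 6 the highest, so that the control range held both other groups. For Vsx1, OIR differed from control by -0.14 on the log2 scale, with a 95% interval of -0.47 to 0.20 and an adjusted p of 0.618 (edgeR). Without control mouse 1 this difference was -0.31 (adjusted p = 0.142, edgeR, the lowest of a range of 0.142 to 0.981 over all alternatives). The difference between treated OIR and OIR was 0.07, with a 95% interval of -0.27 to 0.41.

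Grm6 (chr11:50850685-50866208, plus strand) encodes mGluR6, the receptor at the tips of ON bipolar dendrites. Its log2 CPM was 7.06, 6.89, and 7.04 in the control mice. OIR mice stood at 7.26, 7.51, and 7.10, and treated OIR mice at 6.74, 6.96, and 6.96. All OIR mice were above all mice of both other groups, which overlapped. On the log2 scale, OIR differed from control by 0.30 (SE 0.123, adjusted p = 0.179, edgeR). The treated mice differed from OIR mice by -0.41 (SE 0.123, adjusted p = 0.984, edgeR), and from control mice by -0.11, with a 95% interval of -0.39 to 0.17. Without treated OIR mouse 2 the difference from OIR was -0.31. Of these differences of Grm6, that between OIR and control was called in 1 of 19 alternatives, and the other two in none.

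Trpm1 (chr7:64153835-64269775, plus strand) encodes the cation channel that mGluR6 gates. In control mice its log2 CPM was 7.58, 7.81, and 7.52. In OIR mice it was 7.87, 8.31, and 8.12, and in treated OIR mice 7.87, 7.60, and 7.80. OIR mice were above control mice without overlap, although OIR mouse 3 was only slightly above control mouse 6, and treated OIR mice overlapped both groups. The difference between OIR and control was 0.47 on the log2 scale, a level 1.38-fold that of control (SE 0.142, adjusted p = 0.106, edgeR). DESeq2 on the 2 groups alone called it with an adjusted p of 0.0176. Over 19 alternatives, 2 of which called it, adjusted p-values for Trpm1 ranged from 0.0176 to 0.266. Treated OIR differed from OIR by -0.35 (SE 0.142, adjusted p = 0.9998, edgeR), and by -0.38 without mouse 2.

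Prkca and Pcp2 mark rod bipolar cells. Prkca (chr11:107933387-108343928, minus strand) encodes protein kinase C alpha, the standard marker of these cells. Log2 CPM of Prkca was 7.81, 8.16, and 8.20 in control mice, 8.45, 8.29, and 8.19 in OIR mice, and 8.10, 8.25, and 8.12 in treated OIR mice. All groups overlapped, and control mouse 1 was the lowest. The difference between OIR and control was 0.24 on the log2 scale, with a 95% interval of -0.05 to 0.54, and it was 0.13 without control mouse 1. That between treated OIR and OIR was -0.15, with a 95% interval of -0.45 to 0.14. Neither passed the threshold (adjusted p = 0.290 and 0.9998, edgeR).

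Pcp2 (chr8:3623371-3625545, minus strand) encodes Purkinje cell protein 2, which binds G protein alpha subunits and is found in rod bipolar cells as well as in the cerebellum. Control mice had log2 CPM of 6.51, 6.16, and 6.37. The values were 5.88, 6.07, and 5.60 in OIR mice and 5.57, 6.16, and 5.58 in treated OIR mice. All control mice were above all other mice, but treated OIR mouse 5 lay just under control mouse 6. Pcp2 differed between OIR and control by -0.49 on the log2 scale (SE 0.186, adjusted p = 0.157, edgeR). DESeq2 on the 2 groups called this difference (adjusted p = 0.0210, the lowest of a range of 0.0210 to 0.391 over 19 alternatives). Between treated OIR and control the difference was -0.56 (SE 0.187, adjusted p = 0.192, edgeR), against the same control mice. Treated OIR and OIR differed by -0.07 (95% interval -0.49 to 0.35), and by 0.06 without mouse 2. Pcp2 overlaps Pet100 on the opposite strand, which had 83 to 328 counts per mouse against 746 to 2610 for Pcp2. For Pet100, OIR and control differed by -0.35 on the log2 scale (SE 0.268, adjusted p = 0.463, edgeR).

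Cabp5, Grik1, and Scgn, which are all found in cone bipolar types, had lower values in every treated OIR mouse than in every OIR mouse, but none passed the threshold. Cabp5 (chr7:13398132-13408887, plus strand) encodes a calmodulin-like calcium binding protein of rod bipolar and some cone bipolar cells. Log2 CPM of Cabp5 was 6.22, 6.70, and 6.78 in control mice, 6.80, 6.76, and 6.89 in OIR mice, and 5.87, 6.56, and 6.28 in treated OIR mice. The OIR mice lay close together, while control mouse 1 and treated OIR mouse 2 were low within their groups. The difference between treated OIR and OIR was -0.55 on the log2 scale (SE 0.189, adjusted p = 0.990, edgeR), and it was -0.36 without treated OIR mouse 2. OIR differed from control by 0.23, with a 95% interval of -0.19 to 0.66.

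Grik1 (chr16:87895900-88290265, minus strand) encodes a kainate receptor subunit through which OFF cone bipolar cells receive glutamate. Log2 CPM of Grik1 was 6.27, 6.80, and 6.50 in control mice, 6.47, 6.58, and 7.03 in OIR mice, and 5.97, 6.15, and 6.18 in treated OIR mice. Treated OIR mice were below all other mice, and control and OIR mice overlapped widely. Treated OIR differed from OIR by -0.61 on the log2 scale, a level 0.655-fold that of OIR (SE 0.174, adjusted p = 0.984, edgeR), and by -0.52 without mouse 2. Against control, treated OIR differed by -0.44 (SE 0.173, adjusted p = 0.231, edgeR), and by -0.37 without mouse 2. OIR itself differed from control by 0.17, with a 95% interval of -0.22 to 0.56.

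Scgn (chr13:23953456-23991214, minus strand) encodes secretagogin, an EF-hand calcium sensor of cone bipolar cells. Control mice had log2 CPM of 6.61, 6.80, and 6.73, OIR mice 6.49, 6.43, and 6.84, and treated OIR mice 5.90, 6.34, and 6.07. All treated OIR mice were below all other mice, and OIR mice overlapped control mice. For Scgn, treated OIR differed from control by -0.60 on the log2 scale, a level 0.658-fold that of control (SE 0.145, adjusted p = 0.121, edgeR), and by -0.50 without mouse 2. DESeq2 on the 2 groups called this difference (adjusted p = 0.0283), and over 21 alternatives adjusted p-values ranged from 0.0106 to 0.282, with 4 calls. Against OIR, treated OIR differed by -0.49 (SE 0.145, adjusted p = 0.984, edgeR), and by -0.36 without mouse 2. OIR differed from control by -0.12, with a 95% interval of -0.44 to 0.21.

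**Figure D2:**
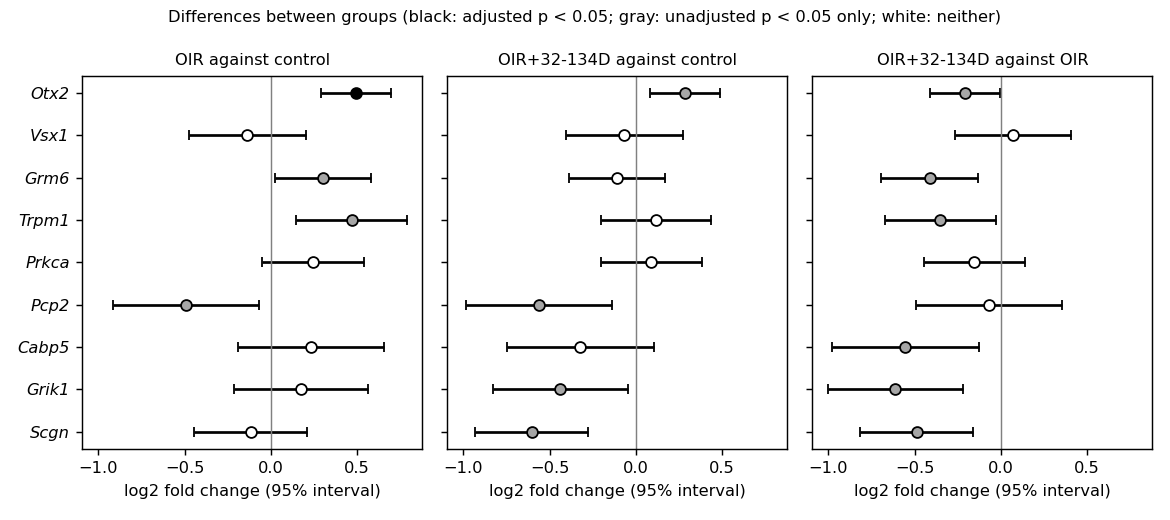
Log2 fold change (horizontal axis) of each gene in the 3 comparisons, with its 95% interval as a bar, from edgeR on all 9 mice. Black points have an adjusted p under 0.05, gray points an unadjusted p under 0.05 alone, and white points neither. Otx2 between OIR and control is the 1 black point, and 8 of 9 points are below 0 between treated OIR (OIR+32-134D) and OIR.

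Counted together, 3 of the 9 genes had an unadjusted p under 0.05 and were higher in OIR than in control (Otx2, Grm6, and Trpm1), beside 11.1% of all genes tested, and 1 was lower (Pcp2), beside 12.7%. The same 3 lay above control without overlap, as 15.9% of all genes did, and the same 1 lay below, as 17.2% did. DESeq2 on the 2 groups called 3 of the 9 (Otx2, Trpm1, and Pcp2), beside 15.6% of the genes it tested. The median log2 fold change of the 9 genes was 0.23, and that of all genes tested was 0.03.

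For treated OIR against control, edgeR called none of the 9 genes and 0.0228% of all genes tested, and DESeq2 on the 2 groups called 1 (Scgn) and 2.21%. At an unadjusted p under 0.05, 1 gene was higher (Otx2), beside 10% of all genes, and 3 were lower (Pcp2, Grik1, and Scgn), beside 8.60%. Without overlap, 1 lay above control, beside 12.8%, and 3 lay below, beside 12.2%. The median was -0.11 for the 9 genes and 0.01 for all genes tested. Without treated OIR mouse 2, 1 of the 9 was higher and 2 were lower at an unadjusted p under 0.05 (edgeR). In that fit 14.2% of all genes tested had such a p in either direction, and the median of the 9 was -0.05.

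For treated OIR against OIR, edgeR called none of the 9 and 0.00% of all genes tested, and DESeq2 on the 2 groups called none of the 9 and 0.431%. At an unadjusted p under 0.05, none of the 9 genes was higher, beside 2.39% of all genes, and 6 were lower (Otx2, Grm6, Trpm1, Cabp5, Grik1, and Scgn), beside 2.30%. Without overlap, none lay above OIR, beside 3.74%, and 5 lay below (the 6 named except Trpm1), beside 5.39%. The median was -0.35 for the 9 genes and 0.01 for all genes tested. Without treated OIR mouse 2, 5 of the 9 were lower at an unadjusted p under 0.05 (the 6 named except Otx2), beside 4.69% of the 18116 genes tested in that fit, none was higher, beside 8.35%, and the median was -0.31. Grm6, Cabp5, Grik1, and Scgn had an unadjusted p under 0.05 in 21 of 21 alternatives, and no alternative called them. The share of all genes that kept such a p throughout was not counted. The alternatives refit largely the same mice and are not independent of each other. Each pair of comparisons shares a group of mice, so their counts are not independent.

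Across the 9 mice, some of the genes varied together. Pearson's r of log2 CPM was 0.85 for Grik1 and Scgn, 0.81 for Cabp5 and Grik1, and 0.77 for Cabp5 and Scgn. Without treated OIR mouse 2 these values were 0.78, 0.74, and 0.55. The r of Otx2 and Trpm1 was 0.71, and that of Otx2 and Pcp2 was -0.58. After each group's mean was subtracted, r was 0.78 for Grik1 and Scgn, 0.75 for Cabp5 and Scgn, and 0.57 for Cabp5 and Grik1. It was -0.16 for Otx2 and Trpm1 and 0.38 for Otx2 and Pcp2, both of the opposite sign to the values above. Pairs with a high r after this step were also Vsx1 and Prkca (0.82) and Grm6 and Pcp2 (0.73). Control mouse 1 was the lowest of the 9 mice for both Vsx1 and Prkca, and their r without it was not computed. The points are 9 libraries that share depth and composition with every gene measured in them, and the values describe these mice alone.

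**Figure D3:**
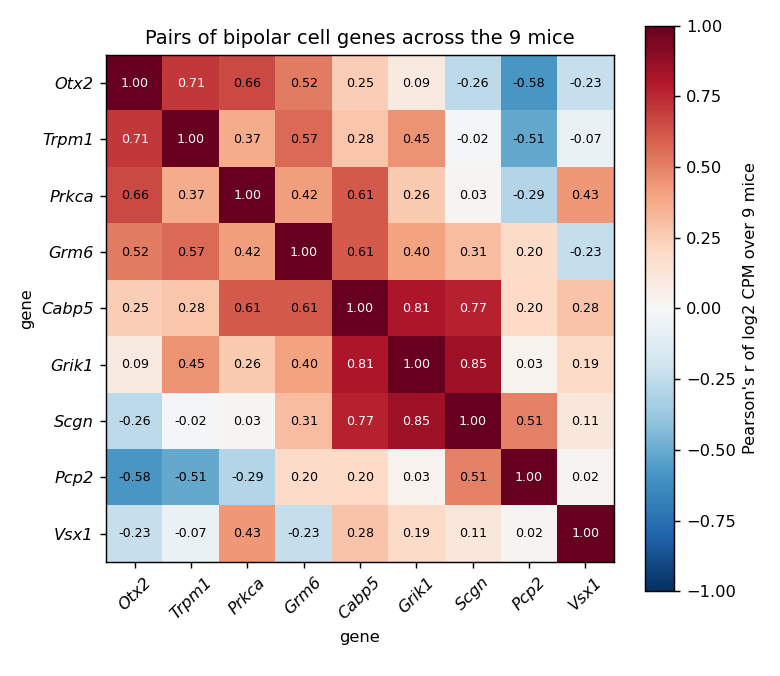
Pearson's r of log2 CPM over the 9 mice for each pair of the 9 genes, which stand on both axes, with the color scale running from -1 to 1. Cabp5, Grik1, and Scgn form a block with r of 0.77 to 0.85, and Otx2 and Pcp2 have the lowest value, -0.58.

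The mean of the 9 genes, each scaled to a z score over the mice, was 0.44, 0.77, and 0.49 among OIR mice. Control mice had -0.64, 0.28, and 0.20, and treated OIR mice -0.85, -0.14, and -0.56. OIR mice were above all mice of both other groups, and control mouse 1 fell within the range of the treated OIR mice. Of the 17531 other genes tested, those whose log2 CPM followed this mean most closely over the 9 mice were Gm9899 (r = 0.957), Lrtm1 (r = 0.930), Acadm (r = 0.924), Gm37805 (r = 0.903), and Snord55 (r = 0.902).

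Genes that act with mGluR6 and TRPM1 in ON bipolar cells did not move as 1 group. None of 12 was called between OIR and control (edgeR), where 0.941% of all genes tested were. At an unadjusted p under 0.05, 3 were higher, beside 11.1% of all genes, and 4 lower, beside 12.7%, and the median log2 fold change was 0.14. Without Grm6 and Trpm1 the median of the other 10 was 0.08. Gnb3, the G protein beta subunit of ON bipolar cells and cones, differed by 0.80 (SE 0.410, adjusted p = 0.270, edgeR), and Lrit3, a synaptic adhesion protein needed for TRPM1 at the dendrites, by 0.53 (SE 0.157, adjusted p = 0.103, edgeR). The lowest of the list were Rgs7bp and Rgs7, whose products belong to the complex that speeds G protein inactivation, while Rgs11 and Gnb5 of the same complex differed by 0.12 (SE 0.231) and 0.05 (SE 0.168). Rgs7 had log2 CPM of 5.65, 5.67, and 5.90 in control and 5.08, 5.13, and 4.53 in OIR mice, a difference of -0.81 (SE 0.222, adjusted p = 0.0886, edgeR). Rgs7bp, which anchors Rgs7 to the membrane, differed by -1.58 (SE 0.494, adjusted p = 0.111, edgeR). Both are also expressed by other neurons. With treatment, against OIR, the median of the 12 genes was -0.15, with none higher, beside 2.39% of all genes, and 4 lower, beside 2.30%, at an unadjusted p under 0.05. Without Grm6 and Trpm1 the median was 0.02, with 5 of the 10 above 0, 5 below, and 2 lower at that p. Without treated OIR mouse 2 the median of the 12 was -0.17, with 1 higher, beside 8.35% of all genes, and 4 lower, beside 4.69%.

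Of 9 rod bipolar genes, with Prkca and Pcp2 among them, none was called between OIR and control (edgeR), beside 0.941% of all genes, and at an unadjusted p under 0.05 none was higher, beside 11.1%, and 2 were lower, beside 12.7%. The median log2 fold change was -0.07. The largest differences were those of Vstm2b, a membrane protein, at -0.49 (SE 0.147, adjusted p = 0.102, edgeR), and Pcp2, also at -0.49. Bhlhe23, a factor needed for rod bipolar maturation, differed by 0.15 (SE 0.137). For treated OIR against OIR the median of the list was 0.03, and it was 0.06 without treated OIR mouse 2.

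Among 14 transcription factors of bipolar cells, 1 (Otx2) was called between OIR and control, beside 0.941% of all genes. At an unadjusted p under 0.05, 4 were higher, beside 11.1%, and 1 lower, beside 12.7%. The median was -0.06. Lhx4, a LIM homeodomain factor of cone bipolar cells, differed by 0.42 (SE 0.129, adjusted p = 0.107, edgeR). The lowest was Bhlhe22, which acts in amacrine cells and OFF cone bipolar cells, at -1.11 (SE 0.371, adjusted p = 0.125, edgeR), followed by Irx6, a factor of some OFF cone bipolar types, at -0.40 (SE 0.194). In treated OIR against OIR, none of the 14 was higher, beside 2.39%, and 2 were lower, beside 2.30%, at an unadjusted p under 0.05. The median was -0.13. Without treated OIR mouse 2 it was -0.02, with 1 higher, beside 8.35%, and 2 lower, beside 4.69%.

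Of 18 genes listed for cone bipolar cells, with Cabp5, Grik1, and Scgn among them, 17 were tested and 1 was called between OIR and control, beside 0.941% of all genes. Not all mark 1 type alone, and some, such as Cabp5 and Cck, are also found in other cells. Slitrk5, a transmembrane protein of the synapse, fell in OIR retina. Its log2 CPM was 3.65, 4.08, and 3.94 in control mice, 3.04, 2.58, and 2.41 in OIR mice, and 2.98, 3.47, and 3.32 in treated OIR mice. All control mice were above all others. The log2 fold change between OIR and control was -1.21 (SE 0.226, adjusted p = 0.0485, edgeR). Over 19 alternatives it ranged from -1.41 to -1.08, with adjusted p-values from 5.35e-05 to 0.186 and 8 calls. With edgeR the call of Slitrk5 was kept without treated OIR mouse 2 (adjusted p 0.00802), where 12.5% of all genes tested were called. The call was lost when any other mouse was left out (adjusted p 0.0566 to 0.186, edgeR). It was also lost with sex as a covariate (0.0873), total counts alone (0.0740), and no crystallin genes (0.0508). At an unadjusted p under 0.05 none of the 17 was higher, beside 11.1% of all genes, and 5 were lower, beside 12.7%, and the median was -0.34. Cpne9, a calcium-dependent membrane binding protein, differed by -1.85 (SE 0.768, adjusted p = 0.186, edgeR), and Cck, a neuropeptide of amacrine cells as well, by -1.24 (SE 0.320, adjusted p = 0.0798, edgeR). Kcng4, a potassium channel subunit, differed by 0.79 (SE 0.501), and had a log2 CPM of 7.25 in OIR mouse 6 and 7.26 in treated OIR mouse 2 against 5.24 to 6.20 in the other mice. The median of the 17 between treated OIR and OIR was -0.20, with 1 higher, beside 2.39%, and 3 lower, beside 2.30%, at an unadjusted p under 0.05, and the 3 were Cabp5, Grik1, and Scgn. Without treated OIR mouse 2 this median was -0.02, with 4 higher, beside 8.35%, and 4 lower, beside 4.69%.

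Of 13 genes of the ribbon synapse and its vesicles, none was called between OIR and control (edgeR), beside 0.941% of all genes. At an unadjusted p under 0.05, 2 were higher, beside 11.1%, and 5 lower, beside 12.7%, and the median was -0.08. Ctbp2, whose locus also encodes the ribbon protein RIBEYE, differed by 0.34 (SE 0.107), Cplx4, a complexin, by 0.33 (SE 0.153), and Bsn, the scaffold Bassoon, by -0.58 (SE 0.185). Rims1, an active zone protein, had log2 CPM of 6.51, 6.91, and 7.18 in control, 4.01, 4.02, and 3.51 in OIR, and 3.02, 4.79, and 7.24 in treated OIR mice 2, 5, and 10. OIR mice were far below control mice, and treated OIR mice spanned both groups. OIR differed from control by -3.04 (SE 0.854, adjusted p = 0.0931, edgeR). Photoreceptors and other neurons also express these genes.

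**Figure D4:**
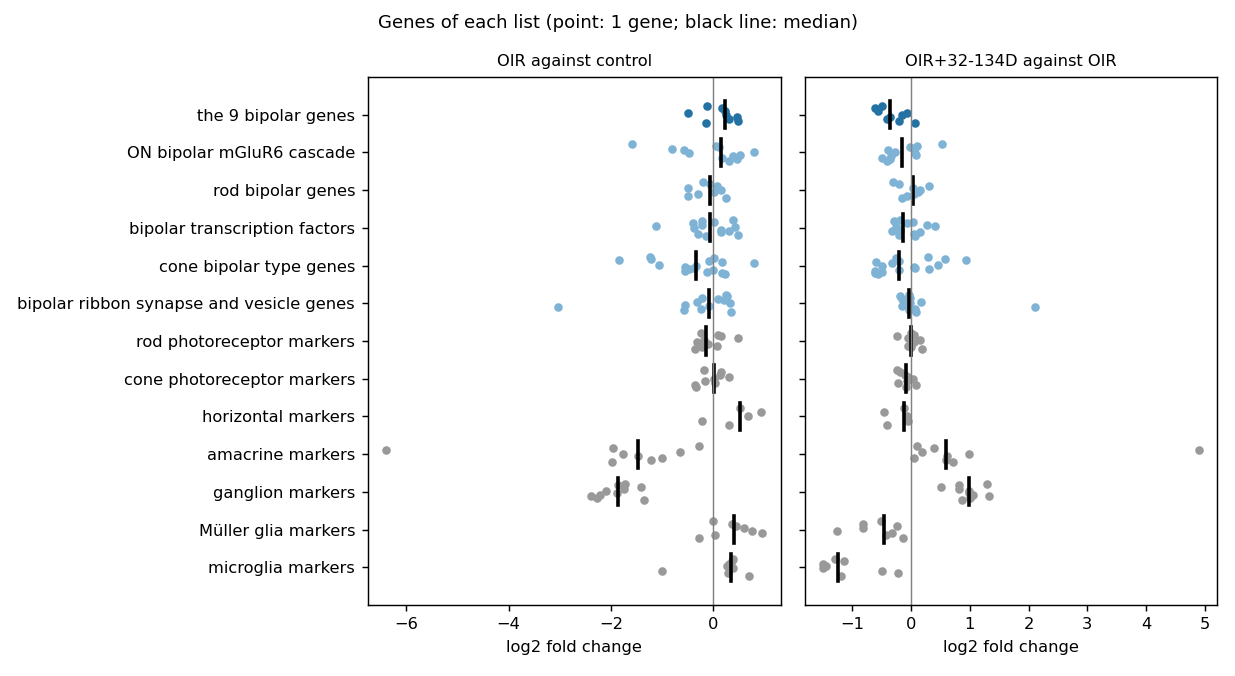
Log2 fold change (horizontal axis) of each tested gene of each list (vertical axis) for OIR against control and for treated OIR (OIR+32-134D) against OIR. Points are genes and black lines are medians. The 9 genes have medians of 0.23 and -0.35, the amacrine markers of -1.46 and 0.60, and the ganglion cell markers of -1.87 and 0.98. Without treated OIR mouse 2 (not drawn), the medians of treated OIR against OIR were -0.31, 0.97, and 1.57 for these lists. Horizontal cell, Müller glia, and microglia markers have medians of 0.53, 0.41, and 0.34 for OIR against control. For treated OIR against OIR they are -0.11, -0.46, and -1.24.

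Markers of other cell types also moved between the groups. All 10 ganglion cell markers and 8 of 9 amacrine markers lay below control in OIR mice without overlap, beside 17.2% of all genes, with median log2 fold changes of -1.87 and -1.46. None of these 19 markers was called (edgeR). Among control mice the summed CPM of the ganglion list ranged from 1557 to 2198, among OIR mice from 186.1 to 772.9. In treated OIR mice 2, 5, and 10 it was 123.7, 1239, and 1286, so that mouse 2 was below all OIR mice and the others above them. That of the amacrine list ranged from 788.7 to 1061 among control mice and from 271.0 to 507.7 among OIR mice, and it was 227.0, 569.2, and 809.7 in the treated OIR mice. No marker of either list was at 0. The 9 bipolar genes did not share this direction as a group, with 6 of 9 above 0 between OIR and control, beside 9382 of the 17540 genes tested. For 8 Müller glia markers the sum ranged from 6725 to 7438 among control mice, from 8210 to 10450 among OIR mice, and was 4729, 6668, and 5761 in the treated OIR mice, without overlap between groups and with no marker at 0. A sum weighs genes of high level most. Apoe, among the highest, overlapped between control (log2 CPM 10.67 to 11.53) and OIR mice (11.53 to 12.25). Taken singly, 1 of the 8 (Slc1a3) lay above control in OIR mice without overlap, beside 15.9% of all genes. Slc1a3 was also called, with a log2 fold change of 0.95 (SE 0.165, adjusted p = 0.0447, edgeR), beside 0.941% of all genes. Among the 8 Müller glia markers the log2 fold change was above 0 for 6 and below 0 for 2. The sum of 8 microglia markers ranged from 94.58 to 425.6 among control mice, from 203.6 to 421.5 among OIR mice, and from 107.5 to 143.9 among treated OIR mice, with no marker at 0. Rod markers had medians of -0.14 between OIR and control and 0.00 between treated OIR and OIR (0.15 without treated OIR mouse 2). Between OIR and control, medians were 0.41 for Müller glia, 0.34 for microglia, and 0.53 for 5 horizontal cell markers. Between treated OIR and OIR they were -0.46, -1.24, and -0.11 (-0.42, -1.13, and -0.09 without treated OIR mouse 2). The medians of the 9 bipolar genes had the same signs. Endothelium markers had medians above 0 in both comparisons (0.31 and 0.50). The part of these shifts in the values of the bipolar genes was not tested.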

How the data were processed

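Retinal RNA of 9 mice was sequenced, and each mouse was 1 replicate. The authors deposited 1 table of whole-number counts per gene, without normalization. The submitters' processing notes name CASAVA and HISAT, and the counting tool and strandedness are not given in the sources used here. Of 54495 gene identifiers shared with GENCODE M21, 98.3% had the same position there, so coordinates are on GRCm38. Counts were fitted with edgeR 4.0.16 in R 4.3.3 (TMM, filter by group, 1 mean per group over all 9 mice, quasi-likelihood test), with Benjamini-Hochberg adjustment over 17540 genes and a threshold of 0.05. Standard errors and 95% intervals came from the same test. Log2 CPM used a prior count of 2, and RPKM used the table's gene lengths and TMM library sizes. Total counts were 16028731 to 27213184, and with at least 626 counts per gene and mouse the spread among mice set the precision. Alternatives were DESeq2 1.42.0 and edgeR on other sets of mice, limma 3.58.1 (voom with quality weights), other scalings and filters, sex as a covariate, a fold limit, and leaving out each mouse, and for log2 CPM a prior count of 0.5 or total counts. The main edgeR fit, DESeq2 on the 2 groups compared, and limma-voom were checked on simulated data, and the other alternatives were not. Fits of 2 groups that leave out treated OIR mouse 2 and a fit without crystallin genes were chosen after seeing the data. The genes and lists were chosen with earlier results of these data known. From each list of bipolar genes, those called and the 2 highest and 2 lowest in OIR against control (mean log2 CPM of at least 1) are named. Figures were made with Python 3.11.15 and matplotlib 3.10.9.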

Additional observations from a re-analysis of the deposited data

How the results depend on the processing

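Between OIR and control, where edgeR called 1 of the 9 genes, the number was 2 with DESeq2 on all 9 mice and with limma-voom, 3 with DESeq2 on the 2 groups, 0 with total counts alone, with sex as a covariate, and with a fold limit, and 0 to 1 when 1 mouse was left out. Of all genes, 165 were called by edgeR, 1977 and 2683 by DESeq2, 2305 by limma-voom, and 37 with total counts alone. With edgeR, 1771 were called on the 2 groups compared and 2272 without treated OIR mouse 2, and 1 of the 9 genes (Otx2) in each. None at all was called with sex as a covariate or in 7 of the 9 fits without 1 mouse, where a count of 0 says nothing particular to the 9 genes. The median log2 fold change was then 0.0757 (without control mouse 1) to 0.3196. Between treated OIR and control, 2 genes were called with DESeq2 on all 9 mice and with limma-voom, and 1 with DESeq2 on the 2 groups, with or without treated OIR mouse 2. Of all genes, edgeR called 4, DESeq2 842 and 374 (826 without that mouse), and limma-voom 926. The median was -0.24 (without control mouse 1) to -0.0512 when 1 mouse was left out. Between treated OIR and OIR the median was -0.46 with total counts alone, a scaling that moved the median of all genes to -0.09, and -0.43 to -0.24 (without OIR mouse 5) when 1 mouse was left out. Of the log2 fold changes of single genes, 515 kept direction and side of the threshold, 10 newly passed it, 10 no longer did (all Otx2 between OIR and control), and 14 changed sign, none of them called. With limma-voom these were Grik1 between OIR and control (-0.0081), Grm6 and Trpm1 between treated OIR and control (0.0009 and -0.059), and Pcp2 between treated OIR and OIR (0.0844). Vsx1 was 0.0054 between treated OIR and control with sex as a covariate and -0.0248 against OIR with total counts alone. Leaving out 1 mouse gave lows and highs of -0.0129 and 0.3223 for Grik1 between OIR and control, and -0.236 and 0.0599 for Vsx1 and -0.0257 and 0.1651 for Prkca between treated OIR and control. For Pcp2 between treated OIR and OIR they were -0.2912 and 0.0627, and without treated OIR mouse 2 on 2 groups it was 0.0389 with DESeq2 and 0.0468 with edgeR. The causes were not tested. No paired analysis was possible because the mice are separate animals that the labels do not pair across groups. With 3 mice per group, the 95% intervals set the limit of what could be detected.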
